A study of Mus musculus with 14 samples.

Results

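The comparison described here is ovariectomy against sham surgery in mouse tibia, taken across all genes. Its members are 6 of the 14 libraries of the study: 3 from ovariectomized mice given phosphate-buffered saline (OVX-PBS) and 3 from sham-operated controls (sham), assigned by the treatment label of each sample. All 6 came from wild-type female C57Bl/6 mice, and treatment ran for 8 weeks from 2 to 4 days after surgery. The labels do not say whether the sham mice also received saline, how old the mice were, or whether the 3 libraries of a group are 3 animals. The p-values below therefore measure only the spread between samples, which may be technical. The other 8 libraries are from ovariectomized mice given 1 of 3 compounds. They entered the filter, the scaling and the estimate of the spread, and a few levels are set against all 14 libraries.

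Ovariectomy removes the main source of estrogen and is the standard rodent model of postmenopausal bone loss. Estrogen restrains osteoclasts, the cells that dissolve bone, in large part by limiting RANKL, the cytokine that drives osteoclast formation, and by sustaining its decoy receptor osteoprotegerin. In marrow, estrogen also holds back B lymphopoiesis. Pro-B cells join immunoglobulin heavy chain segments with the Rag1 and Rag2 recombinase and with Dntt, which adds untemplated bases at the joints. A successful heavy chain is then displayed with the surrogate light chain, made of Vpreb and Igll1, as the pre-B cell receptor.

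In the 6 libraries no gene passed the test. Genes of the surrogate light chain and of early B cell development, immediate early genes, and collagen and tendon genes averaged higher in OVX-PBS, while osteoclast genes lay close to the sham level. Of 21761 genes tested with edgeR's quasi-likelihood test, 0 passed a Benjamini-Hochberg adjusted p of 0.05, and the smallest adjusted p was 0.913. With the DESeq2 Wald test 1 gene of the same 21761 passed (0.0046%), Col14a1. DESeq2 gave no p-value for some of the 21761, among them Cyp11b1, Cyp21a1, Akr1d1 and Hao2. At an unadjusted p under 0.05 edgeR gave 594 genes (2.73%), 313 higher (1.44%) and 281 lower (1.29%) in OVX-PBS, and DESeq2 gave 615 (2.83%). If no gene differed, 1088 would be expected under that threshold, more than either test gave. All 3 OVX-PBS libraries lay above all 3 sham libraries in 876 genes (4.03%) and below them in 784 (3.6%). These shares are the background for the counts in each gene group with all libraries in the fit. Other fits had other totals of genes with p under 0.05, the background for list counts from those fits. Without sham replicates 1, 2 and 3 in turn, edgeR gave 434, 385 and 1546 genes. Without OVX-PBS replicates 1, 2 and 3 it gave 269, 485 and 1426. Without both sham replicate 1 and OVX-PBS replicate 1 it gave 230, and with the 6 libraries alone 493. Of all genes 11188 (51.4%) averaged higher in OVX-PBS, the median log2 difference was 0.0079, and differences are OVX-PBS minus sham throughout.

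The intervals show what size of difference these libraries could bound. The 95% interval of the difference lay within 2-fold in both directions for 14546 genes (66.8%). That share was 88.0% among the 9989 genes between 10 and 100 CPM (counts of a gene scaled to a fixed library total, with TMM factors) in the higher group and 20.6% among the 5690 genes under 2 CPM. Libraries held 29.2 to 32.6 M counts in sham and 20.1 to 35.2 M in OVX-PBS. Levels in CPM are not divided by transcript length and are compared here only between libraries, not between genes.

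Several libraries carried transcripts of other tissues, and these accompany the largest differences. Sham replicate 1 held steroid-producing adrenal cortex transcripts. Hsd3b1, which makes progesterone, read 566 CPM there, 0.225 and 3.21 CPM in sham replicates 2 and 3, and 0, 0.244 and 0 CPM in OVX-PBS. Cyp21a1, the adrenal steroid 21-hydroxylase, read 485 CPM in sham replicate 1 and at most 2.63 in the other 5 libraries. Cyp11b1, which makes corticosterone, read 293 CPM against at most 1.77. Nr5a1 (23.3 CPM), the transcription factor that specifies steroidogenic cells, and Mc2r (20.6 CPM), the corticotropin receptor, were high in that library alone among the 6. Pnmt, the epinephrine-making enzyme of the adrenal medulla, read 7.97 CPM there and at most 0.304 in the other 5.

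A list of 13 adrenal cortex genes, drawn up after these values were seen, had 10 tested members. All 10 averaged lower in OVX-PBS, 9 with an unadjusted p under 0.05 (background 1.29%), and the list median was -7.27. Its summed level was 2147 CPM in sham replicate 1, 59.3 and 63.5 CPM in the other sham libraries, and 50.5 to 61.4 CPM in OVX-PBS. Without sham replicate 1 the median was -1.20 and 0 members had p under 0.05. Among all 14 libraries the next highest Hsd3b1 level was 24.2 CPM. Akr1d1, a steroid 5-beta-reductase, and Hao2, a hydroxyacid oxidase, followed the same pattern, with 35.2 and 12.4 CPM in sham replicate 1 and at most 0.252 and 0.0721 in the other 5 libraries. The named-gene rule thus picked Cyp11b1, Cyp21a1, Akr1d1 and Hao2 among the lower genes, and their position rests on 1 library.

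OVX-PBS replicate 1 was poor in central nervous system transcripts. The 25 genes of that list summed to 1192 CPM there, 4621 and 5513 CPM in the other OVX-PBS libraries, and 3858 to 8412 CPM in sham. All 25 averaged lower, 0 with p under 0.05 and 1 without overlap (4% of the list, background 3.6%). The median was -0.87, and it was -0.36 without that library. Slc6a5, the glycine transporter of spinal neurons, read 0.172 CPM in OVX-PBS replicate 1 and 49.1 and 51.0 CPM in replicates 2 and 3. Bc1, Cdr1os and Cnih2, all neuronal transcripts, were the next largest lower genes by the rule and were lowest in that library, with Bc1 at 10.7, 34.3 and 36.8 CPM in OVX-PBS and 38.4, 70.5 and 108 CPM in sham. Sham replicate 3 held the lymph node mucin Glycam1 at 32.5 CPM and the scavenger receptor Marco at 27.3 CPM, each at most 0.915 CPM in the other 5 libraries. Of 117 lower genes with p under 0.05 and at least 5 CPM in sham, 15 had over 80% of their summed sham level in a single library, 12 of them in sham replicate 1 and 3 in sham replicate 3. The bone genes Bglap and Ctsk were well above 100 CPM in all 6 libraries.

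Liver transcripts were higher in sham replicates 1 and 2 by the mean log2 CPM of the list, in which scarce genes count equally. By replicate, these means were 1.44, 1.12 and -0.30 in sham and -1.20, -0.04 and -0.84 in OVX-PBS. The summed CPM of the list did not show this, at 223.6, 257.5 and 242.3 in sham and 203.6, 314.5 and 174 in OVX-PBS. Alb, which encodes serum albumin, stood at 13.4, 13.3 and 0.829 CPM in sham and at 0.286, 2.07 and 0.720 CPM in OVX-PBS. Its groups overlapped. Its log2 difference was -3.11 ± 0.900 (edgeR unadjusted p = 0.0047), and it lay between -4.09 and -2.73 over the 6 fits that each left out 1 library. Of 17 liver genes tested, 14 averaged lower, 10 of them with p under 0.05 (background 1.29%) and 3 without overlap (background 3.6%), and the median was -2.07. Most other members were scarce, such as Fga, which encodes a fibrinogen chain, at 0, 0.0914 and 0 CPM in OVX-PBS and 0.548, 0.394 and 0.144 CPM in sham, and Akr1d1 is also a member. Without sham replicates 1 and 2 in turn, 9 and 10 members could be tested, 2 and 3 had p under 0.05, and the medians were -1.42 and -1.07.

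**Figure D1:**
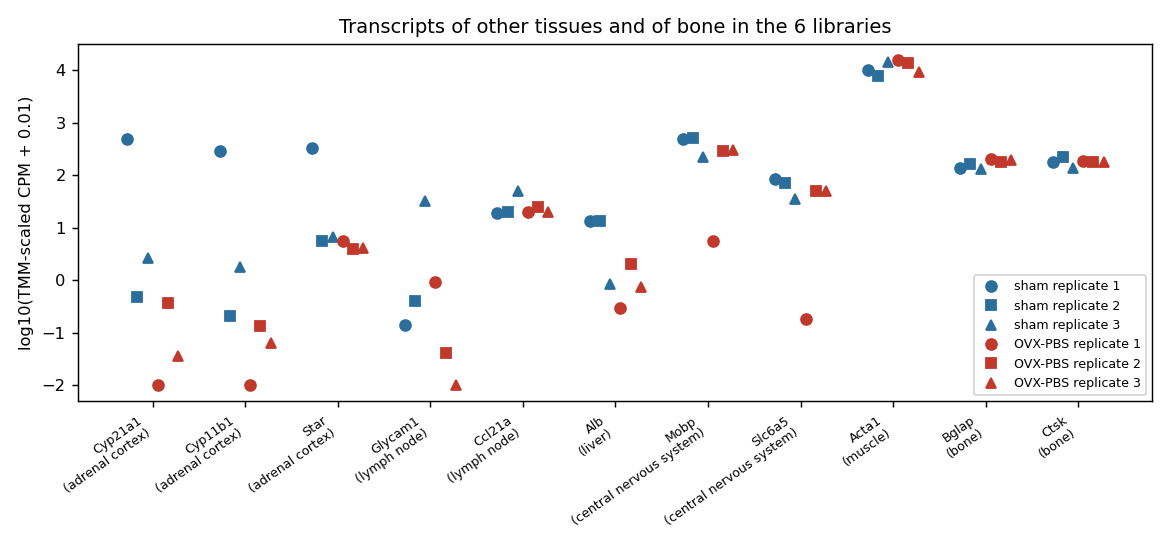
Each point is 1 library, and the y axis is log10 of TMM-scaled CPM plus 0.01 for genes that mark adrenal cortex, lymph node, liver, central nervous system, muscle and bone. Sham replicate 1 stands far above the rest for the adrenal genes, with sham replicate 3 next (Cyp21a1 at 485 and 2.63 CPM). Sham replicate 3 stands alone for Glycam1, and OVX-PBS replicate 1 is low in Mobp and Slc6a5, while Bglap and Ctsk lie close together in all 6.

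Early B cell genes gave the highest list median of all those examined. Of 22 pro-B and pre-B cell genes tested, 20 averaged higher in OVX-PBS, 10 of them with an unadjusted p under 0.05 (background 1.44%), and 9 did not overlap between groups (background 4.03%). The list median was 0.65. The mean log2 CPM of the list was 3.87, 4.09 and 4.51 in OVX-PBS replicates 1 to 3 and 3.05, 3.76 and 3.57 in sham, so the groups did not overlap. In bulk tissue, more cells of a type and more RNA per cell cannot be told apart.

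Genes of the surrogate light chain were higher in every OVX-PBS library than in any sham library. Vpreb1 (chr16:16868403-16870843, - strand, mm10), which encodes its variable-like half-molecule, read 4.69, 5.57 and 6.74 CPM in OVX-PBS and 1.39, 2.73 and 2.09 CPM in sham. The log2 difference was 1.45 ± 0.389 (SE; edgeR unadjusted p = 0.0028), or 2.74-fold with a 95% interval of 1.52- to 4.92-fold. Igll1 (chr16:16860671-16863985, - strand), the lambda-5 constant-like partner, read 4.63, 6.94 and 7.94 CPM against 2.26, 3.15 and 2.7 CPM, again without overlap (1.27 ± 0.399). Vpreb2, a close copy of Vpreb1, was scarce, at 0.457, 1.07 and 0.640 CPM against 0.0645, 0.197 and 0.108 CPM (2.51 ± 0.528). The coding transcripts of Vpreb1 and Vpreb2 are 766 and 759 bases long and align with 97.4% identity, so how reads were shared between them is uncertain. Over the 6 fits that each left out 1 library, the difference stayed between 1.23 and 1.70 for Vpreb1 and between 1.08 and 1.46 for Igll1.

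The promoters of these 3 genes are shown because the surrogate light chain carries the pattern and because Vpreb1 and Vpreb2 are near copies there too. Sequences are from the RefSeq promoter table (GRCm38.p6), 5′ to 3′ on the gene's strand, from 250 bases before the transcription start to 50 after it. Capitals mark CAGNTG on either strand, the E-box form bound by the E2A proteins that direct B cell commitment. Vpreb1 lies at chr16:16869206-16869505, - strand, Vpreb2 at chr16:17980315-17980614, + strand and Igll1 at chr16:16863936-16864235, - strand.
Vpreb1: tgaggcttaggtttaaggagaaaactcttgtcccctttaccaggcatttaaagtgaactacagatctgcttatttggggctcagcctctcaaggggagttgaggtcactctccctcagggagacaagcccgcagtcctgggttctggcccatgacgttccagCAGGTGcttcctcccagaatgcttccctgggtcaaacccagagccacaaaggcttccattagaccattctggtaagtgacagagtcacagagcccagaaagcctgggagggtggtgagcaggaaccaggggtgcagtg
Vpreb2: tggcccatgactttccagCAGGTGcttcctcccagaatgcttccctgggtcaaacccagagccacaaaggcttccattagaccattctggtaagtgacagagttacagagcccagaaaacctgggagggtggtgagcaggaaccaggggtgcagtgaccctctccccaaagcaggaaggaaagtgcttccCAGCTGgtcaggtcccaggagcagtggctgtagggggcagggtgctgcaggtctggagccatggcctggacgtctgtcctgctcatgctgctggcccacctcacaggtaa
Igll1: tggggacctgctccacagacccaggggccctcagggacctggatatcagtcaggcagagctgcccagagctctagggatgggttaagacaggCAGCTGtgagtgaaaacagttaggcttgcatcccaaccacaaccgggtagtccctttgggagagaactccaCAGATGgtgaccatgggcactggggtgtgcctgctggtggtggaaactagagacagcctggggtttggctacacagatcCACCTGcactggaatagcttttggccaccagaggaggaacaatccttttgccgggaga
The Vpreb1 and Vpreb2 windows share an identical run of 91 bases, and 4417 bases separate Igll1 from Vpreb1, on the same strand. The RefSeq start of Vpreb1 lies inside the span that GENCODE gives the gene. CAGNTG occurred in 14 of the 19 listed early B cell genes with a promoter entry (73.7%), in 54.6% of 27025 genes with an entry and in 11 of 14 tendon genes (78.6%). A match describes these letters only, and binding was not measured.

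Genes that act before and around the pre-B cell receptor followed the same direction. Dntt, the terminal transferase of pro-B cells, read 3.83, 6.85 and 9.33 CPM in OVX-PBS and 2.10, 3.77 and 2.99 CPM in sham (1.18 ± 0.435). The lowest OVX-PBS library was only just above the highest sham library. Rag1 read 9.95, 13.1 and 30.8 CPM against 4.64, 11.9 and 7.03 CPM, with OVX-PBS replicate 1 below sham replicate 2 (1.20 ± 0.520). Rag2 differed by 1.36. Vpreb3, an endoplasmic reticulum protein of B cell precursors, read 11.3, 15.5 and 19.1 CPM against 4.90, 10.4 and 7.39 CPM without overlap (1.02 ± 0.357).

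Pax5, the factor that fixes B cell identity, read 34.8, 30.9 and 47.7 CPM against 11.2, 22.7 and 25.5 CPM without overlap (0.93), and Blnk, an adaptor of B cell receptor signalling, differed by 0.74. Il7r, the receptor for the cytokine that sustains pro-B cells, overlapped between groups at 6.58, 8.62 and 15.7 CPM against 5.03, 9.83 and 9.27 CPM (0.36), and turned to -0.11 without OVX-PBS replicate 3. Of the 22 members, 18 had their lowest level of the 6 libraries in sham replicate 1 and 18 their highest in OVX-PBS replicate 3. The number of members with p under 0.05 was 3 without either of these libraries in turn, and the list median was then 0.44 and 0.37. It was 7 without sham replicate 3 and 10 without each of the others.

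Later B cell stages and other blood lineages had medians nearer to 0 or below it. Of 25 mature B and plasma cell genes 15 averaged higher, 0 had p under 0.05 and 0 were without overlap, with a median of 0.12. As in the early list, sham replicate 1 was most often the lowest library (16 of 25) and OVX-PBS replicate 3 the highest (13 of 25). The mature list median ran from -0.27 without OVX-PBS replicate 3 to 0.36 without sham replicate 3. Igkc, the kappa light chain constant region, read 121, 113 and 307 CPM in OVX-PBS and 302, 298 and 341 CPM in sham (-0.79 ± 0.463), with OVX-PBS replicate 3 above the lowest sham library. Whether the early and late lists differed from each other was not tested. The neutrophil list had a median of -0.08 and changed with single libraries, from 0 of 21 genes higher without OVX-PBS replicate 3 to 21 of 21 higher without sham replicate 2. Sham replicate 2 held Elane, the neutrophil elastase gene, at 125 CPM where the other 5 libraries had 30.1 to 79.1 CPM.

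T and NK cell genes had a median of -0.55 with 23 of 29 lower and 0 with p under 0.05, and sham replicate 3, the library with lymph node transcripts, carried Cd8b1 at 5.08 CPM against 0.323 to 0.560 CPM in the other 5. Without it the T and NK cell median was 0.03. The 11 tested lymph node genes summed to 41.3 to 147 CPM in sham, highest in replicate 3, and to 50.3 to 51.8 CPM in OVX-PBS. All 24 erythroid genes averaged higher (median 0.26), but 15 of 24 did without OVX-PBS replicate 1, and without both that library and sham replicate 1 only 2 of 24 did. Sham replicate 1 was the lowest library for 23 of the 24. Whether lymph node or adrenal tissue in single sham libraries bears on the blood cell lists was not tested.

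**Figure D2:**
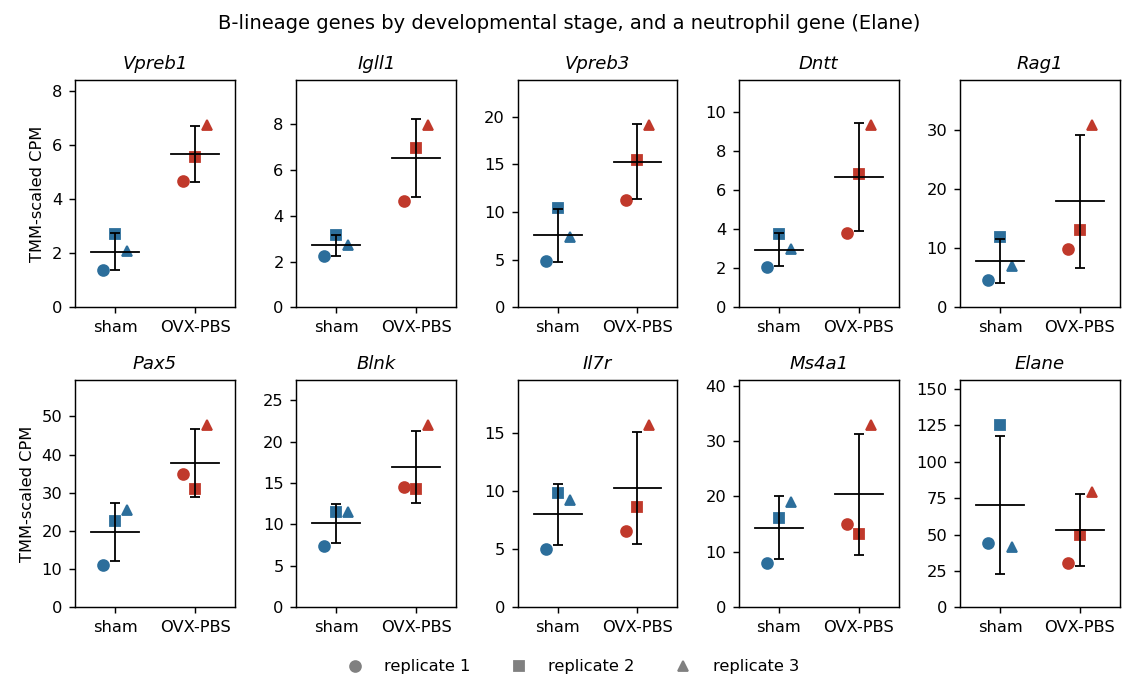
Points are TMM-scaled CPM of single libraries, with the mean (long bar) and SD (error bar) of 3 libraries per group. Shown are B-lineage genes, not strictly in order of developmental stage, and the neutrophil gene Elane. Vpreb1, Igll1, Vpreb3, Dntt and Pax5 do not overlap between groups, whereas Il7r, Ms4a1 of mature B cells and Elane do.

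Immediate early genes, transcribed within minutes of a stimulus without new protein synthesis, averaged higher in OVX-PBS in 28 of 32 cases. Of these 10 had p under 0.05 (background 1.44%), 15 were without overlap (background 4.03%) and the list median was 0.30. Fos (chr12:85473890-85477273, + strand), an AP-1 subunit that is also needed for osteoclast formation, read 52.1, 25.2 and 29.3 CPM in OVX-PBS and 19.8, 14.2 and 21.1 CPM in sham. The groups did not overlap, but OVX-PBS replicate 1 stood well above the rest, and the difference of 0.95 ± 0.266 was 0.57 without it. Nr4a1, an orphan nuclear receptor, read 110, 102 and 75.7 CPM against 59.0, 34.2 and 75.2 CPM (0.77 ± 0.236). OVX-PBS replicate 3 and sham replicate 3 were almost level.

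Apold1, an endothelial early response gene, had sham libraries close together at 6.06, 6.53 and 7.10 CPM and OVX-PBS libraries at 16.4, 11.1 and 9.49 CPM (0.90 ± 0.241). Fosb, another AP-1 subunit, read 3.54, 3.32 and 2.80 CPM against 1.45, 1.72 and 2.34 CPM (0.81 ± 0.239). Dusp1, a phosphatase that ends MAP kinase signalling, overlapped through sham replicate 3 at 72.8 CPM (0.69). OVX-PBS replicate 1, the library poor in central nervous system transcripts, was the highest for 24 of the 32 genes, and whether the 2 features are linked was not tested. Without it 6 had p under 0.05, leaving out sham replicate 2 also gave 6, and 3 did without both OVX-PBS replicate 1 and sham replicate 1. In the same direction, Hspa1b, an inducible heat shock protein, read 34.8, 17.4 and 18.1 CPM against 12.6, 15 and 15.8 CPM (0.69). The heat shock list had a median of 0.11.

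The promoters of Fos, Nr4a1, Apold1 and Fosb, the list members lowest in p, are shown because this class is known for cAMP response elements. Capitals mark TGACG, the core of that element, or its reverse complement, in RefSeq windows of the same build, length and orientation as above. Fos lies at chr12:85473640-85473939, + strand, Nr4a1 at chr15:101266596-101266895, + strand, Apold1 at chr6:134981751-134982050, + strand and Fosb at chr7:19309996-19310295, - strand.
Fos: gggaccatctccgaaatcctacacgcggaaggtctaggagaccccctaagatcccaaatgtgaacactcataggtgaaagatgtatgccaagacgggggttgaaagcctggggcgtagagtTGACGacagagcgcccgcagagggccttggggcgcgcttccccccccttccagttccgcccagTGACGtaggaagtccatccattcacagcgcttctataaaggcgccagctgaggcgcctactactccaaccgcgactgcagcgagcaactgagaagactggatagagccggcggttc
Nr4a1: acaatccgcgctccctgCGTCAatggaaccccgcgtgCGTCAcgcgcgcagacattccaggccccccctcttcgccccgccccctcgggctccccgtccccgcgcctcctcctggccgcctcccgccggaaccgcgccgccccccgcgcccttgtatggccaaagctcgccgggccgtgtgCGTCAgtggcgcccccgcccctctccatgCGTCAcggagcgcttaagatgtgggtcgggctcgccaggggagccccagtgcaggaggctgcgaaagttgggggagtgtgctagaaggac
Apold1: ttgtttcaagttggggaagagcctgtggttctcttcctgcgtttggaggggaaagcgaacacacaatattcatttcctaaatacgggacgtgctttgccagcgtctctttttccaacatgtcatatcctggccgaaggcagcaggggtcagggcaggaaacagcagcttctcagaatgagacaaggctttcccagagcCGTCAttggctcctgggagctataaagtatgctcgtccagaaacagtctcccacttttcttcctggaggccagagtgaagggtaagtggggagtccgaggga
Fosb: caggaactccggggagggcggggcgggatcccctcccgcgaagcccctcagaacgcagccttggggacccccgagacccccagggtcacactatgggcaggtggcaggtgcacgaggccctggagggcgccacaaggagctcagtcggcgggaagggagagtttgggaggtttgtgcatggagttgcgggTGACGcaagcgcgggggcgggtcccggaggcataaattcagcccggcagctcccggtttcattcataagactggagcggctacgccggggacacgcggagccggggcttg
Nr4a1 had 4 matches, Fos 2, and Apold1 and Fosb 1 each. The Nr4a1 and Apold1 windows lie inside the spans that GENCODE gives these genes. TGACG was searched on both strands, including its occurrences within TGACGTCA. It was found in 17 of 26 listed genes with an entry (65.4%) and in 23.0% of all 27025 genes. In other lists it was found in 7 of 20 estrogen genes (35%), 4 of 19 early B cell genes (21.1%) and 0 of 14 tendon genes. The full TGACGTCA was found in 3 of the 26 (Dusp1, Btg2 and Maff; 11.5%) and in 2.03% of all genes. These are matches of letters, and binding was not measured.

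Matrix genes of collagen fibrils, tendon and periosteum also averaged higher in OVX-PBS. Of 27 fibrillar collagen and cross-linking genes 24 averaged higher (median 0.28), 6 with p under 0.05 (background 1.44%) and 11 without overlap (background 4.03%). Of 24 tendon and periosteum genes, some shared with the first list, 21 averaged higher (median 0.31). Among them 8 had p under 0.05 (background 1.44%) and 10 were without overlap (background 4.03%). Col14a1 (chr15:55307750-55520803, + strand), a collagen that sits on the surface of fibrils, had the smallest p of the genes named here. It read 51.3, 41.7 and 38.7 CPM in OVX-PBS and 27.1, 24.5 and 31.8 CPM in sham, with no overlap (0.66 ± 0.125; edgeR unadjusted p = 2.01e-04; 1.58-fold with a 95% interval of 1.31 to 1.91). DESeq2 gave it an adjusted p of 0.0487 and edgeR 0.913. Over the 6 fits that each left out 1 library its difference lay between 0.53 and 0.77.

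Among small proteoglycans and tendon proteins, Kera, which carries keratan sulfate, read 16.8, 9.44 and 7.17 CPM against 5.55, 3.72 and 5.59 CPM (1.16). OVX-PBS replicate 1 was the highest library by a wide margin. Tnmd, a membrane protein of mature tenocytes, was more even at 13.3, 9.41 and 11.9 CPM against 6.64, 7.04 and 6.63 CPM (0.77 ± 0.216), with the sham libraries nearly identical. Postn, a periosteal matrix protein, read 107, 79.5 and 83.3 CPM against 65.9, 65.5 and 62.0 CPM (0.48), and Aspn, asporin, which binds collagen, differed by 0.47.

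Col3a1, the collagen of reticular and early repair fibrils, read 410, 336 and 292 CPM against 216, 176 and 280 CPM (0.63), sham replicate 3 lying just below the lowest OVX-PBS library. Col15a1, a basement membrane collagen, read 71.0, 57.7 and 58.2 CPM against 39.8, 33.0 and 51.6 CPM (0.59). Serpinh1, the collagen chaperone HSP47, read 277, 201 and 201 CPM against 142, 143 and 176 CPM (0.56), and P4ha1, a prolyl hydroxylase of procollagen, differed by 0.28. OVX-PBS replicate 1 was the highest library for 21 of the 27 collagen genes and 20 of the 24 tendon genes. Without it, 2 collagen and 3 tendon genes had p under 0.05, and leaving out sham replicate 2 gave 3 and 4. Without both OVX-PBS replicate 1 and sham replicate 1 the counts were 1 and 3. Muscle genes averaged higher in 26 of 26 cases too (median 0.32, 0 with p under 0.05, 0 without overlap), with summed levels of 69680 to 109500 CPM in OVX-PBS and 51320 to 100600 CPM in sham, and their part in the matrix difference was not tested. Sham replicate 2 was lowest for 24 of the 26 muscle genes, and the muscle median was 0.08 without it and 0.59 without sham replicate 3.

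**Figure D3:**
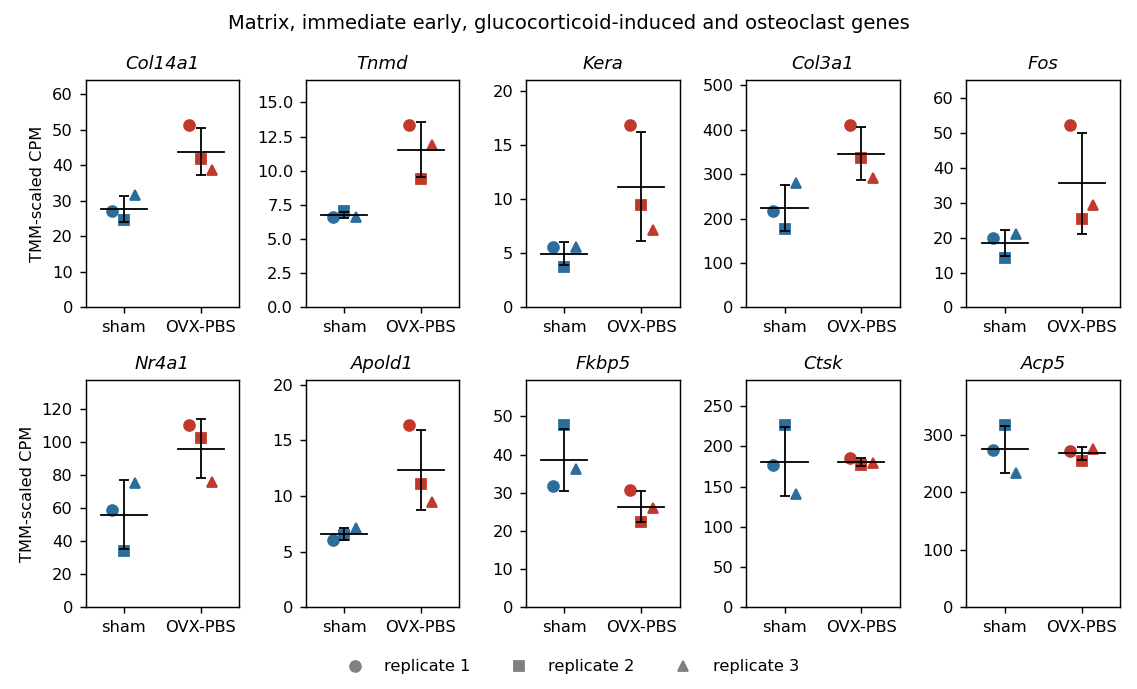
Points are TMM-scaled CPM of single libraries, with the mean (long bar) and SD (error bar) of 3 libraries per group, for matrix genes, immediate early genes, the glucocorticoid-induced Fkbp5 and the osteoclast genes Ctsk and Acp5. Groups are apart for Col14a1 and Tnmd, are spread by OVX-PBS replicate 1 for Kera and Fos, and overlap for Ctsk and Acp5.

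Osteoblast genes leaned the same way. Of 23 tested, 22 averaged higher (median 0.33), 0 had p under 0.05 (background 1.44%) and 9 were without overlap (background 4.03%). Bglap, which encodes osteocalcin, read 202, 183 and 193 CPM in OVX-PBS and 140, 163 and 132 CPM in sham (0.41 ± 0.293), with no overlap. Its neighbour Bglap2, with which it shares near-identical sequence and possibly reads, read 120, 98.3 and 98.0 CPM against 67.3, 77.4 and 58.8 CPM (0.63 ± 0.325). Col1a1, the main bone collagen, overlapped, with OVX-PBS replicate 2 just below sham replicate 2 (0.46 ± 0.313), and the mineralization enzyme Alpl differed by 0.21 ± 0.241. Omd, a bone keratan sulfate proteoglycan, read 29.7, 15.2 and 18.3 CPM against 13, 13.5 and 15.1 CPM (0.60), and its lowest OVX-PBS library was barely above its highest sham library. For 13 of the 23 genes the interval lay within 2-fold either way. OVX-PBS replicate 1 was the highest library for 16 of the 23, and the list median was 0.22 without it. Without both it and sham replicate 1, 17 of 23 averaged higher (median 0.19). In a fit of the 6 sham and OVX-PBS libraries alone 5 had p under 0.05, and without OVX-PBS replicate 2 3 did.

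Cartilage and growth plate genes had the second highest median among the bone and marrow lists, 0.50, with 19 of 22 higher. Only 1 had p under 0.05 (background 1.44%) and 4 were without overlap (background 4.03%). Col9a1, a collagen of cartilage fibrils, read 14.2, 4.45 and 5.44 CPM in OVX-PBS and 1.71, 2.84 and 3.97 CPM in sham (1.49 ± 0.569). Col10a1, made by hypertrophic chondrocytes of the growth plate, read 35.2, 17.3 and 26.9 CPM against 6.13, 16.4 and 15.4 CPM (1.06 ± 0.494). In both genes the highest library was OVX-PBS replicate 1 and the lowest sham replicate 1. Leaving out OVX-PBS replicate 1 brought the list median to 0.19, leaving out sham replicate 1 to 0.35 and leaving out both to 0.04.

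Osteoclast genes, the group tied most closely to bone loss after ovariectomy, did not separate. Of 23 tested, 6 averaged higher and 17 lower, 0 had p under 0.05 and 0 were without overlap in either direction (median -0.06). Ctsk, the collagen-degrading protease, read 186, 176 and 180 CPM in OVX-PBS and 177, 226 and 140 CPM in sham. The OVX-PBS libraries lay inside the sham range, and the 95% interval of the ratio ran from 0.648 to 1.54. Acp5, the tartrate-resistant acid phosphatase, read 272, 254 and 276 CPM against 273, 316 and 234 CPM, with an interval of 0.635 to 1.5. For 22 of the 23 genes the interval excluded a 2-fold difference in either direction, and for 7 a 1.5-fold difference. Sham replicate 2 was the highest library for 15 of the 23, and without it 17 of the 23 averaged higher (median 0.09).

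The signals that control osteoclasts showed little separation either. Tnfsf11, which encodes RANKL, read 2.12, 1.55 and 1.65 CPM in OVX-PBS and 1.55, 2.08 and 2.09 CPM in sham (ratio interval 0.534 to 1.60). Tnfrsf11b, which encodes osteoprotegerin, read 7.03, 6.15 and 6.58 CPM against 5.71, 5.86 and 7.43 CPM (0.698 to 1.55). Csf1, the macrophage growth factor that osteoclast precursors need, was below sham in all 3 OVX-PBS libraries at 36.6, 41.5 and 41.9 CPM against 45.5, 46.2 and 44.7 CPM (-0.18 ± 0.0955). Of 11 genes of the axis 4 averaged higher, among them Fos, the only member with p under 0.05.

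Cytokines linked to estrogen deficiency had a median of 0.13, with 17 of 23 tested genes higher and 1 with p under 0.05. Only 11 of 23 were higher without sham replicate 1 (median -0.0090) or without OVX-PBS replicate 3 (median -0.04). The gene with p under 0.05 was Ccl2, a chemokine for monocytes, which read 1.20, 2.10 and 1.65 CPM against 1.26, 0.817 and 0.829 CPM (0.78). Its groups overlapped through OVX-PBS replicate 1, and no gene of the list had p under 0.05 without OVX-PBS replicate 2. Il6, Il17a, Ifng and Cd40lg had too few counts to be tested. Il7 and Tnf, encoding the B cell growth factor and the inflammatory cytokine, differed by 0.24 and 0.05.

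Osteocyte and Wnt pathway genes showed no common direction. Sost, the osteocyte Wnt inhibitor sclerostin, read 8.75, 4.6 and 7.52 CPM against 6.71, 8.17 and 8.40 CPM (-0.16 ± 0.463). Wif1, a secreted Wnt inhibitor, was above sham in all 3 libraries at 33.6, 27.8 and 30.4 CPM against 19.7, 23.1 and 21.5 CPM (0.51 ± 0.267). Sfrp4, a decoy for Wnt ligands that restrains bone formation, was below at 24.0, 22.6 and 22.9 CPM against 25.7, 32.8 and 35.1 CPM (-0.43 ± 0.235). Of 21 Wnt genes 12 averaged higher and 0 had p under 0.05. Without overlap, 2 were above sham (background 4.03%) and 1 below it (background 3.6%). Of 14 osteocyte genes 10 averaged higher, and Kcnk2, a stretch-sensitive potassium channel, was the only one with p under 0.05 (-0.37).

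Fat cell genes overlapped between the groups. White adipocyte genes averaged higher in 16 of 26 cases, with 0 p under 0.05, 0 without overlap and a median of 0.04. Sham replicate 2 was lowest for 24 of the 26. Without it 5 of 26 averaged higher (median -0.25), against 24 without sham replicate 1 (0.23), 24 without sham replicate 3 (0.27, with 3 at p under 0.05) and 26 without OVX-PBS replicate 3 (0.21). Brown fat genes were present as well, summing to 490.4 to 860.5 CPM in OVX-PBS and 405.7 to 867.4 CPM in sham, with sham replicate 2 lowest again, 7 of 12 higher and a median of 0.02. Ucp1, the uncoupling protein of brown fat, read 64.6 to 226 CPM in the 6 libraries, and which fat depot the adipocyte transcripts came from was not measured. Adipoq, which encodes adiponectin, read 121, 133 and 80.4 CPM in OVX-PBS and 113, 62.0 and 127 CPM in sham (0.14 ± 0.283). Lep, which encodes leptin, read 12.2, 9.04 and 9.70 CPM against 4.84, 4.39 and 10.4 CPM (0.66 ± 0.351), where sham replicate 3 lay within the OVX-PBS range. Without sham replicate 3 the Lep difference was 1.16. Pparg, the master regulator of fat cells, differed by 0.13.

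**Figure D4:**
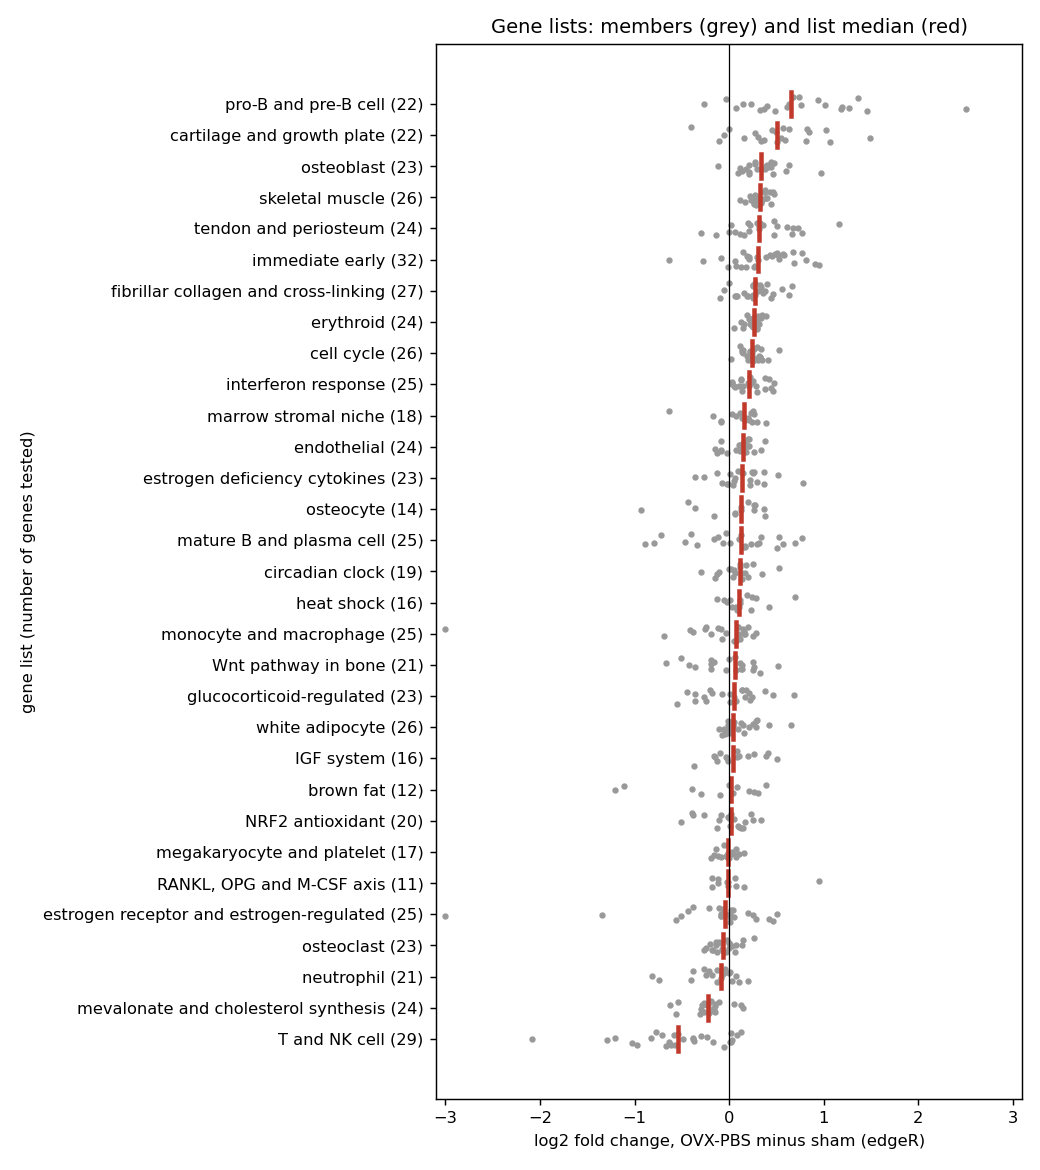
Each grey point is the log2 difference of 1 gene (OVX-PBS minus sham, edgeR) and each red bar the median of its list, for 31 lists with the number of genes tested in parentheses; 2 points beyond -3, Marco and Cyp11a1, are drawn at the edge. The pro-B and pre-B cell list has the highest median (0.65), T and NK cell genes the lowest of the lists drawn (-0.55), and osteoclast genes lie around 0 (-0.06).

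The transcripts that respond to estrogen itself went in both directions. Of 25 listed genes 12 averaged higher, and the median was -0.04. With p under 0.05 there were 3 higher (background 1.44%) and 2 lower (background 1.29%). Greb1 (chr12:16670615-16800886, - strand), an estrogen-induced cofactor of the estrogen receptor, read 1.60, 1.46 and 1.65 CPM in OVX-PBS and 7.26, 2.76 and 1.95 CPM in sham. All OVX-PBS libraries lay below sham, but sham replicate 1, which carries the adrenal transcripts, was the highest of all 14 libraries. The difference was -1.34 ± 0.407 with that library and -0.58 (edgeR unadjusted p = 0.0526) without it. The other lower gene with p under 0.05, Cyp11a1, the first enzyme of steroid synthesis, read 210 CPM in sham replicate 1 and at most 1.73 CPM in the other 5. Wnt4, at 28.5 CPM in sham replicate 1, went from -0.51 to 0.02 without it.

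Esr1, the main estrogen receptor, read 28.8, 25.2 and 23.6 CPM in OVX-PBS and 20.1, 15.3 and 22.5 CPM in sham (0.42 ± 0.15). Igf1, an estrogen- and growth hormone-regulated growth factor, read 40.4, 30.3 and 31.5 CPM against 23.1, 18.7 and 30.4 CPM (0.50 ± 0.170), and Sgk1, a steroid-induced kinase, 67.8, 71.6 and 58.4 CPM against 44.4, 42.0 and 57.3 CPM (0.46 ± 0.156). Esr1 and Sgk1 were apart by a narrow margin at sham replicate 3, and Igf1 overlapped there. Without sham replicate 2, 0 of the 3 had p under 0.05, with Esr1 at 0.25.

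Glucocorticoid-induced genes diverged from one another. Fkbp5, a chaperone of steroid receptors induced by glucocorticoids, read 30.7, 22.4 and 26.1 CPM in OVX-PBS and 31.8, 47.7 and 36.3 CPM in sham. The groups did not overlap, with OVX-PBS replicate 1 and sham replicate 1 almost level (-0.55 ± 0.157, edgeR unadjusted p = 0.0043). The Fkbp5 difference was -0.67 without sham replicate 1 and -0.40 without sham replicate 2. Tsc22d3, another glucocorticoid-induced gene (GILZ), lay the other way at 146, 142 and 128 CPM against 94.9, 109 and 116 CPM (0.38 ± 0.140). Over the 23 listed genes the median was 0.05.

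Some other lower genes had their sham level spread over all 3 sham libraries. Tmem254a, a transmembrane protein of unassigned function, read 1.49, 1.40 and 1.79 CPM in OVX-PBS and 3.84, 3.97 and 2.49 CPM in sham (-1.14 ± 0.292). It has close copies in the mouse genome, so its read assignment is uncertain. Zfp618, a zinc finger protein, read 3.26, 3.59 and 3.84 CPM against 5.45, 5.27 and 4.65 CPM (-0.52 ± 0.138). Srxn1, the sulfiredoxin that repairs oxidized peroxiredoxins, read 47.1, 47.6 and 52.7 CPM against 68.3, 70.2 and 53.9 CPM (-0.39 ± 0.113). Il4ra, the receptor chain for interleukins that drive alternative macrophage activation, read 20.9, 21.5 and 25.1 CPM against 35.2, 35.8 and 28.9 CPM (-0.57 ± 0.189). Ubxn11 and Pdlim2 differed by -0.56 and -0.45. In all of them sham replicate 3 was the sham library nearest to OVX-PBS.

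Genes of mevalonate and cholesterol synthesis averaged lower in 21 of 24 cases (median -0.22). Of these, 3 had p under 0.05 (background 1.29%). Only 1 was without overlap, 4.17% of the list against a background of 3.6%. Dhcr7, which makes cholesterol from its last precursor, read 15.6, 16.2 and 18.8 CPM in OVX-PBS and 31.9, 24.9 and 18.1 CPM in sham (-0.56 ± 0.182). Mvk, mevalonate kinase, read 9.95, 11.1 and 10.7 CPM against 13.2, 13.8 and 12.3 CPM (-0.30 ± 0.126), the member without overlap. Leaving out sham replicates 1, 2 and 3 in turn gave 0, 1 and 10 genes with p under 0.05, and leaving out OVX-PBS replicate 3 gave 7. Over all genes the same fits gave 434, 385, 1546 and 1426. In each of these fits 21 of 24 members averaged lower. By replicate, the list summed to 1067, 1074 and 838.2 CPM in sham and to 852.9, 835.3 and 932 CPM in OVX-PBS. Sham replicate 2 was the highest library for 13 of the 24 genes and sham replicate 1 for 9. Steroid-producing tissue also makes cholesterol, and the part of the adrenal transcripts of sham replicate 1 in these differences was not tested.

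The remaining genes picked on the higher side by their p were Fam221b, Marcks and Otud1. Fam221b, of unassigned function, read 31.6, 27.6 and 20.2 CPM against 16.8, 16.3 and 16.6 CPM (0.67 ± 0.169). Marcks, a kinase substrate that binds actin at the membrane, read 149, 132 and 137 CPM against 119, 109 and 113 CPM (0.29 ± 0.0814). Otud1, a deubiquitinase, read 52.2, 22.8 and 29.0 CPM against 14.5, 18.5 and 21.7 CPM (0.92 ± 0.272). The 3 were without overlap, Otud1 with its highest level in OVX-PBS replicate 1.

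**Figure D5:**
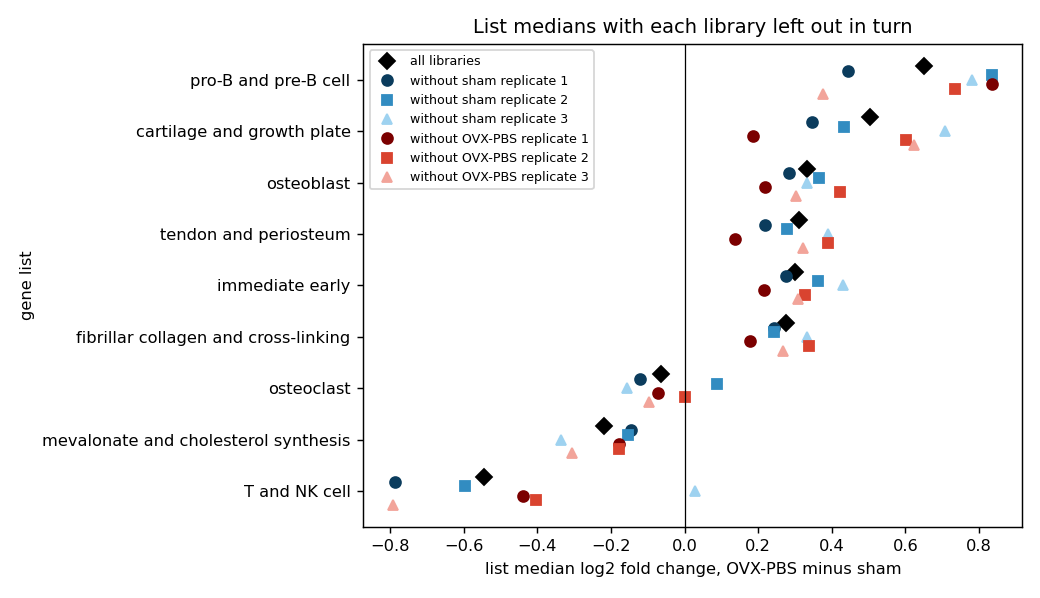
Medians of the log2 difference (OVX-PBS minus sham, edgeR) over the genes of 9 lists, with all libraries (black) and with each of the 6 libraries left out in turn (colours and shapes). Early B cell medians range from 0.37 to 0.84, those of tendon, immediate early and collagen genes stay above 0, osteoclast medians lie on both sides of 0, and T and NK cell genes reach 0.03 without sham replicate 3.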

How the data were processed

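Poly(A) RNA of tibia was sequenced from 14 libraries with a stranded mRNA kit, per the labels' protocols. Without role or order, the submitters' processing notes name STAR 2.7.8a, Bowtie2 2.2.5, CASAVA 1.8.1 and Partek, and mm10 as genome build. The annotation, the counter and the use of strand in counting were not given in the sources used here. The authors deposited estimated counts per gene symbol, unnormalized, and these were analysed. With a tolerance of 0.01, 20.7% of them were not whole numbers. A second table that the authors deposited as log2 of normalized counts carries the same counts and was not tested.

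Estimated counts were rounded. The edgeR filter by group left 21761 of 55291 symbols, and libraries were scaled by TMM. All 14 libraries of 5 groups entered a single quasi-likelihood fit of group means (edgeR 4.0.16 in R 4.3.3; 9 residual degrees of freedom), and the contrast OVX-PBS minus sham was tested two-sided with Benjamini-Hochberg adjustment. Alternatives were DESeq2 1.42.0, its size factors, no filter, the 6 libraries alone, a replicate block and fits without single libraries. Levels are TMM-scaled CPM. Gene positions are from GENCODE vM21 (mm10), which held 96.4% of the symbols. The scripts were tested on simulated counts.

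Named genes were, per direction, the 12 with the smallest p that reached 2 CPM without overlap and the 6 with the largest fold that reached 5 CPM, leaving out predicted genes, pseudogenes and receptor segments. Up to 4 members of each list by p, genes at the head of a pathway and 20 genes always named were added. Other genes, among them Hsd3b1, Rag1, Postn, Hspa1b and the adrenal genes, were chosen after their values were seen. The gene lists and this rule were chosen with earlier results of these data known, so lists are described by counts and medians and not tested. A few listed genes are not reported here.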

Additional observations from a re-analysis of the deposited data

How the results depend on the processing

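The number of genes called was 0 in edgeR under every alternative run, and 1 (Col14a1) with the DESeq2 Wald test. The count of genes with an unadjusted p under 0.05 was 594 and depended on single libraries. With 1 library left out it ran from 269 (without OVX-PBS replicate 1) to 1546 (without sham replicate 3), while leaving out sham replicate 2 gave 385 and leaving out OVX-PBS replicate 3 gave 1426. It was 230 without both sham replicate 1 and OVX-PBS replicate 1, an alternative added after seeing the data. The smallest adjusted p in these edgeR fits was 0.0944, without sham replicate 2. The labels give replicate numbers only, and same-numbered libraries did not deviate together (correlations -0.227, -0.0329 and -0.445); a replicate block gave 0 called genes and 518 with p under 0.05. Of 176 genes followed, 170 could be tested in all 6 fits with a library left out, and 145 of these kept the sign of their difference in each. Among those whose difference exceeded its standard error, the following crossed 0. By sham replicate 3 these were Cd3e (-1.39 to 0.044), Cd8b1 (-2.59 to 0.13), Cr2 (-1.29 to 0.18), Cxcl13 (-2.88 to 0.47) and Marco (-4.88 to 0.44). By sham replicate 2 they were Cox7a1 (-0.019 to 0.50), Ctsg (-1.24 to 0.16), Prtn3 (-1.05 to 0.11) and Scn10a (-0.74 to 0.057), and by sham replicate 1 Wnt4 (-0.78 to 0.024). Fech was -0.025 without both sham replicate 1 and OVX-PBS replicate 1. Akr1d1 and Hao2 had too few counts to be tested without sham replicate 1. For other results the cause of a difference between settings was not tested. Differences in genes under 2 CPM were poorly bounded at this depth.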

Other observations

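All 25 interferon response genes tested averaged higher in OVX-PBS (median 0.21), 5 of them without overlap (background 4.03%) and 0 with p under 0.05 (background 1.44%). Ifit1, an antiviral protein that binds foreign RNA, read 12.9, 10.7 and 8.96 CPM in OVX-PBS and 7.74, 8.00 and 8.55 CPM in sham (0.42 ± 0.235). The number averaging higher fell to 21 of 25 without OVX-PBS replicate 2, and to 20 of 25 without both sham replicate 1 and OVX-PBS replicate 1. All 26 cell cycle genes averaged higher (median 0.24, 0 without overlap), and only 3 of 26 did so without both of those libraries. Sham replicate 1 was the lowest library for 25 of the 26.

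Clock genes had a median of 0.11, and Dbp, a clock output factor with a strong daily rhythm, read 31.9, 43.9 and 30.7 CPM against 31.3, 21.5 and 20.9 CPM (0.53 ± 0.225), overlapping through sham replicate 1. Endothelial genes had a median of 0.15 with 24 of 24 intervals within 2-fold either way. Aplnr, the apelin receptor of vessels, read 18.9, 18.3 and 17.0 CPM against 14.4, 11.6 and 15.8 CPM without overlap (0.37 ± 0.142). In the marrow niche, Angpt1, a factor that keeps stem cells and vessels quiescent, read 32.8, 27.4 and 27.8 CPM against 24.8, 22.5 and 24.7 CPM (0.29 ± 0.107).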
